A study of Mus musculus with 15 samples.

Results

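Endothelial genes and the VEGF ligand gene Vegfa were followed in whole kidneys of a mouse model of TFE3 translocation renal cell carcinoma. The 10 genes were taken by name, in a list chosen with earlier results of these data known. They were Ehd3, Flt1, Kdr, Pecam1, Cdh5, Tek, Emcn, Plvap, Vwf and Vegfa. Each was measured by 1 entry of the array annotated with that gene alone, and they are 10 of the 22180 genes that could be tested under a name. All mice carried a knock-in of PRCC-TFE3 at the Rosa26 locus behind a loxP-stop-loxP (LSL) cassette, which keeps the gene silent until Cre recombinase removes the stop. PRCC-TFE3 joins part of PRCC to TFE3, a basic helix-loop-helix transcription factor of the MiT family. Cre came from the KSP-Cre transgene, which uses the promoter of Cdh16 (Ksp-cadherin) and is known to be active in tubule epithelium. Whole kidneys were measured, so each value reads all cell types together. The groups were PRCC-TFE3;KSP-Cre- (Cre-) and PRCC-TFE3;KSP-Cre+ (Cre+) kidneys at 4 months (4 and 4 mice) and at 7 months (3 Cre- and 4 Cre+ mice), with 1 array per mouse. KSP-Cre alone, in mice lacking the knock-in, was not among the groups, and effects of the fusion and of the Cre transgene cannot be told apart.

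Blood vessels are lined by endothelial cells, which respond to vascular endothelial growth factor (VEGF) through receptor tyrosine kinases. Vegfa is made in the kidney largely by podocytes and tubule cells and acts on endothelium through Kdr (VEGFR2), the main signalling receptor, while Flt1 (VEGFR1) binds the ligand tightly and limits what reaches Kdr. Angiopoietin 1 stabilises vessels through Tek (Tie2). The kidney has a fenestrated glomerular capillary bed, marked in mouse by Ehd3, and a peritubular bed, marked by Plvap, a protein of fenestral diaphragms.

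The values are log2 expression after RMA normalization, so a difference of 1 is a 2-fold difference. Groups were compared with limma, and a gene was called where the p-value adjusted over all 22180 genes was under 0.05. Array medians lay between 4.40 and 4.55, and each array's mean correlation with the others of its group was between 0.985 and 0.99. At 4 months Tfe3 itself read 6.31 to 6.68 in Cre+ and 6.41 to 6.61 in Cre- kidneys, and 6.75 to 6.88 and 6.51 to 6.61 at 7 months, which was not called at either age (adjusted p = 0.92 and 0.14). Gpnmb, a gene known for high levels in TFE3-driven tumours, read 10.21 or more in all 8 Cre+ arrays and 4.69 or less in all 7 Cre- arrays. Markers of proximal tubule had a mean level of 9.15 or more in every array. The sex of the mice is not labelled. The mean of 3 Y-linked genes reached at least 6.92 in 8 arrays and at most 2.98 in the other 7, with 2 of each kind in every group except the 7-month Cre- group, which held 2 high and 1 low.

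RefSeq promoter windows on build GRCm38.p6 were held for 6 of the 10 genes. Those of the 4 genes that were lower in Cre+ mice at 7 months are shown, because these are the members whose values separated the groups. Each is the 250 bases before a gene start, read 5′ to 3′ on the gene's own strand. Ehd3 lies at chr17:73804591-73804840 on the plus strand, Flt1 at chr5:147726012-147726261 and Kdr at chr5:75978456-75978705 on the minus strand. Vegfa has windows at chr17:46032378-46032627 and, for a start further downstream, at chr17:46025164-46025413, also on the minus strand. Capitals mark matches, on either strand, to the motifs searched.
Ehd3: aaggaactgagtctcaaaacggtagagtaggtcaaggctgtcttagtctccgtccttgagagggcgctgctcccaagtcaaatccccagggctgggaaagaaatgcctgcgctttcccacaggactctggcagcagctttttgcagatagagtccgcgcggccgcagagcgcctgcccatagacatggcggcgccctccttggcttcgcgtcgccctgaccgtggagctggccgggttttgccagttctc
Flt1: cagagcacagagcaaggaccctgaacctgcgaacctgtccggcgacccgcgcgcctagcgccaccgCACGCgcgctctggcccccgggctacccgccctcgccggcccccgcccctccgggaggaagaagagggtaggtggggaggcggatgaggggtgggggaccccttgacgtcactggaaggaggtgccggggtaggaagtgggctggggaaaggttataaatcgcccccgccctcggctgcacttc
Kdr: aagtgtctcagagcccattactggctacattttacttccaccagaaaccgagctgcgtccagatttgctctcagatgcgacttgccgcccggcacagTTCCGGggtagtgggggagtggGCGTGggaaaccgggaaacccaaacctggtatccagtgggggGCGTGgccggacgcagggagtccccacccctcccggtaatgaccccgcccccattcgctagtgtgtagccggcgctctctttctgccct
Vegfa upstream start: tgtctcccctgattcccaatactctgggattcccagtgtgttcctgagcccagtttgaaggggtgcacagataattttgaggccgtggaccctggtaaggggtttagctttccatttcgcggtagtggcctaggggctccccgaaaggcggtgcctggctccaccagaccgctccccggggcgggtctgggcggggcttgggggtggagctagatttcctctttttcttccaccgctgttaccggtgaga
Vegfa downstream start: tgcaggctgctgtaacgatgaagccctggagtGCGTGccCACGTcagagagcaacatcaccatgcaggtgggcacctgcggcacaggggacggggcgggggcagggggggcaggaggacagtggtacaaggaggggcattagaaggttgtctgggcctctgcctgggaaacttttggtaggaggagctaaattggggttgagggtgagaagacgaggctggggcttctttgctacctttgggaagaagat

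The motifs were CACGTG and TCACGTG, the E-box and its extended form that MiT factors are known to bind, ACGTG and GCGTG, the core letters of hypoxia response elements, and CCGGAA, a core of ETS factor sites. Every CACGTG also holds ACGTG. No window of the 6 genes held CACGTG or TCACGTG, which occur in 6.02% and 3.13% of all 32851 windows of the table. The window of Kdr held GCGTG at 2 places and CCGGAA at 1, that of Flt1 held GCGTG once, and the downstream window of Vegfa held GCGTG and ACGTG once each. This downstream window lies inside the gene as read from the upstream start, so its matches are not in the promoter of that start. Emcn also held GCGTG once, and Ehd3, Tek and the upstream window of Vegfa held none of the motifs. Across all windows, GCGTG occurs in 28.2%, ACGTG in 16.6% and CCGGAA in 12.0%. A match describes the letters of the window and not a bound site.

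At 4 months none of the 10 genes differed between Cre+ and Cre- kidneys at the adjusted threshold (limma, 0 of 10, and 0 at an unadjusted p under 0.05), where 3.53% of all genes were called and 16.3% had an unadjusted p under 0.05. At 7 months 4 of 10 were called, all lower in Cre+ kidneys: Ehd3, Flt1, Kdr and Vegfa. Over all genes 22.5% were called at 7 months and 10.8% were called lower. With arrays centred on their medians, calls over all genes were 497 higher and 511 lower at 4 months and 2337 and 3609 at 7 months, beside 606 and 178, and 2597 and 2394, as deposited. The median log2 change of the 10 genes was -0.06 at 4 months and -0.39 at 7 months, beside 0.05 and -0.04 over all genes tested. Because the list was chosen with earlier results of these data known, setting its counts and medians beside all genes is a description. The general endothelial genes Pecam1 and Cdh5 were not among those that fell. These are whole kidneys, so fewer cells of a type and less RNA per cell cannot be told apart.

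**Figure D1:**
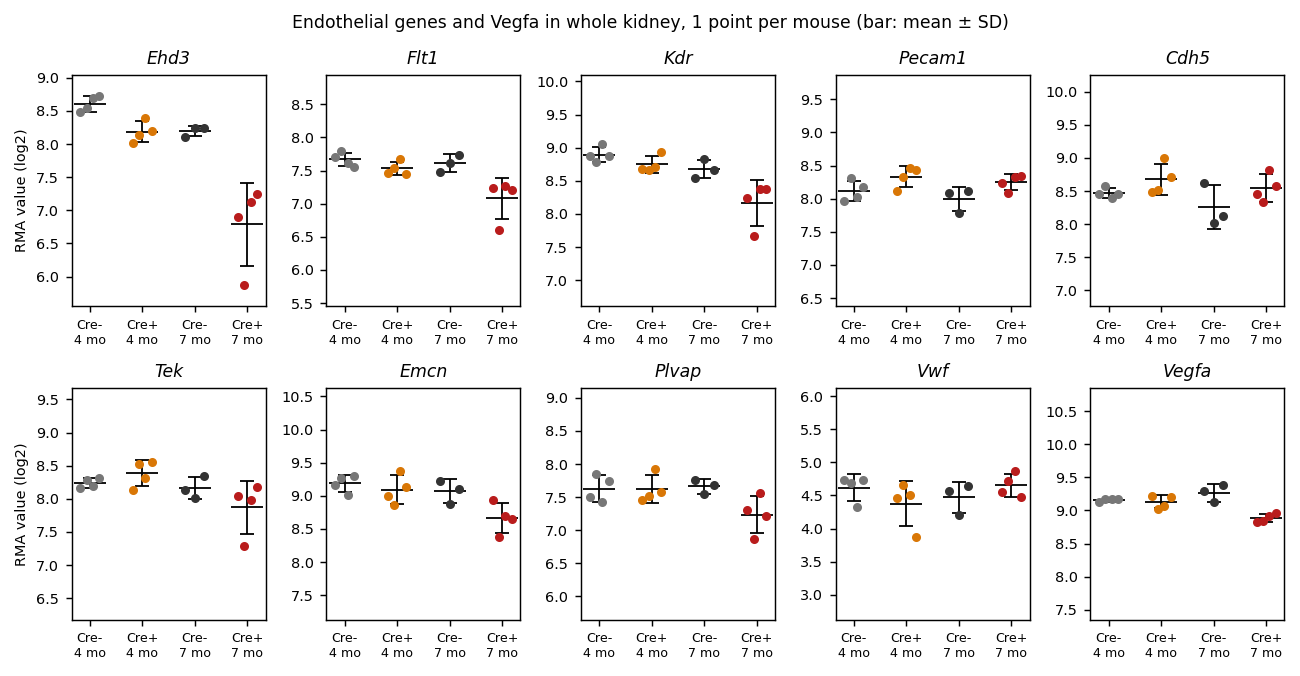
RMA log2 value of each of the 10 genes (vertical axis) in the 4 groups (horizontal axis), 1 point per mouse, with the group mean and SD as bars. At 7 months the Cre+ points of Ehd3, Flt1, Kdr and Vegfa lie below all Cre- points, while those of Pecam1 and Cdh5 overlap with them.

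Vegfa encodes the ligand. Its values were 9.12, 9.17, 9.17 and 9.17 in Cre- and 9.22, 9.02, 9.07 and 9.20 in Cre+ mice at 4 months. At 7 months they were 9.30, 9.12 and 9.38 in Cre- and 8.82, 8.84, 8.92 and 8.96 in Cre+ kidneys. The 4-month groups overlapped, and every 7-month Cre+ array was below every other array of the study. The log2 change was -0.03 ± 0.09 (SE, n = 4 and 4) at 4 months, and Vegfa fell by 0.38 ± 0.10 (SE, n = 4 Cre+ and 3 Cre-, adjusted p = 0.0071) at 7 months, a 1.30-fold difference. The difference between the 2 effects was -0.35 ± 0.13 and was not called (adjusted p = 0.19, 95% interval without adjustment -0.63 to -0.08). The 7-month change was -0.42 in arrays with high Y-linked values and -0.36 in those with low ones, and neither was called on these smaller sets (adjusted p = 0.10 and 0.17).

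Kdr, the main signalling receptor for Vegfa, read 8.88, 8.79, 9.05 and 8.87 in Cre- and 8.68, 8.67, 8.71 and 8.93 in Cre+ mice at 4 months. The 7-month values were 8.55, 8.83 and 8.66 in Cre- and 8.24, 7.66, 8.38 and 8.38 in Cre+ kidneys. The groups overlapped at 4 months and did not at 7 months, where 15.2% of all genes showed such a separation in the lower direction. Kdr changed by -0.15 ± 0.14 (SE) at 4 months, which was not called (adjusted p = 0.66), and fell by 0.51 ± 0.15 (SE, adjusted p = 0.02) at 7 months. This call was lost when the 7-month groups were fitted alone (adjusted p = 0.066) and without Cre- replicate 2 (-0.44, adjusted p = 0.099). In arrays of low Y-linked values, 1 Cre- and 2 Cre+ at 7 months, the change was -0.17 (adjusted p = 0.57), and in those of high values it was -0.79 (adjusted p = 0.015).

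Flt1, the high-affinity receptor that restrains VEGF signalling, read 7.70, 7.79, 7.62 and 7.56 in Cre- and 7.47, 7.54, 7.67 and 7.45 in Cre+ mice at 4 months. At 7 months the Cre- values were 7.48, 7.62 and 7.74 and the Cre+ values 7.24, 6.61, 7.27 and 7.20. All 7-month Cre+ arrays were again the lowest of the study, with replicate 2 far below the others. The 4-month change of -0.14 ± 0.13 was not called (adjusted p = 0.67), and at 7 months Flt1 fell by 0.53 ± 0.14 (SE, adjusted p = 0.01). Without Cre+ replicate 2 the 7-month change was -0.38 (adjusted p = 0.02). It was -0.75 (adjusted p = 0.021) in arrays of high and -0.24 (adjusted p = 0.43) in arrays of low Y-linked values.

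Tek, the angiopoietin receptor Tie2, read 8.16, 8.29, 8.19 and 8.31 in Cre- and 8.14, 8.53, 8.31 and 8.56 in Cre+ mice at 4 months. At 7 months it read 8.13, 8.01 and 8.34 in Cre- and 8.04, 7.29, 7.98 and 8.18 in Cre+ kidneys. The groups overlapped at both ages. The changes were 0.15 ± 0.16 (SE, adjusted p = 0.71) and -0.28 ± 0.17 (SE, adjusted p = 0.28), and the latter was -0.09 (adjusted p = 0.70) without Cre+ replicate 2.

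Ehd3 encodes an endocytic recycling protein that is concentrated in glomerular endothelium. Its values were 8.48, 8.54, 8.69 and 8.73 in Cre- and 8.02, 8.14, 8.40 and 8.20 in Cre+ mice at 4 months. At 7 months they were 8.11, 8.25 and 8.24 in Cre- and 6.90, 5.87, 7.13 and 7.25 in Cre+ kidneys. The groups did not overlap at either age, a separation in the lower direction that 3.16% of all genes showed at 4 months and 15.2% at 7 months. Ehd3 had the largest change of the 10 genes at each age, -0.42 ± 0.21 (SE) at 4 months, which was not called (adjusted p = 0.35), and -1.41 ± 0.23 (SE, adjusted p = 2.1e-04) at 7 months, a 2.66-fold difference. Without Cre+ replicate 2 the 7-month change was -1.11 (adjusted p = 1.6e-05). It was called within arrays of high Y-linked values (-1.86, adjusted p = 5.8e-04) and within those of low ones (-0.92, adjusted p = 0.0097). The difference between the ages, -0.99 ± 0.31, was not called (adjusted p = 0.12).

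Pecam1 and Cdh5 are adhesion genes of nearly all endothelium, encoding CD31 and VE-cadherin. Pecam1 read 7.97, 8.31, 8.03 and 8.17 in Cre- and 8.11, 8.33, 8.46 and 8.44 in Cre+ mice at 4 months, and 8.08, 7.79 and 8.11 against 8.24, 8.08, 8.33 and 8.34 at 7 months. Cdh5 read 8.46, 8.58, 8.39 and 8.45 in Cre- and 8.49, 8.51, 9.0 and 8.71 in Cre+ mice at 4 months, and 8.63, 8.02 and 8.13 against 8.45, 8.34, 8.82 and 8.58 at 7 months. The groups overlapped for each gene at each age, with Cre+ means above Cre- means throughout. The Pecam1 change was 0.22 ± 0.11 (SE, adjusted p = 0.36) and 0.26 ± 0.12 (SE, adjusted p = 0.16) at the 2 ages. That of Cdh5 was 0.21 ± 0.15 (SE, adjusted p = 0.53) and 0.28 ± 0.16 (SE, adjusted p = 0.23). The 95% intervals at 7 months, -0.00 to 0.51 for Pecam1 and -0.05 to 0.62 for Cdh5, hold no fall of the size seen for Kdr or Flt1. Pecam1 was called higher at 7 months after quantile normalization (0.30, adjusted p = 0.042), and Cdh5 without Cre- replicate 1 (0.47, adjusted p = 0.043).

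Emcn encodes endomucin, a sialomucin of capillary and venous endothelium. It read 9.17, 9.27, 9.01 and 9.30 in Cre- and 8.99, 8.86, 9.38 and 9.14 in Cre+ mice at 4 months, and 9.23, 8.88 and 9.11 against 8.93, 8.38, 8.70 and 8.65 at 7 months. Only Cre+ replicate 1 reached the Cre- range at 7 months. The 7-month change of -0.40 ± 0.14 (SE) just missed the threshold (adjusted p = 0.053), after -0.10 ± 0.13 (SE) at 4 months. It passed under 7 of 18 alternatives, among them arrays centred on their medians (-0.48, adjusted p = 0.011). The loss of Cre- replicate 2 (-0.50, adjusted p = 0.042) or of Cre+ replicate 1 (-0.49, adjusted p = 0.025) also gave a call. Without Cre+ replicate 2 the 7-month change was -0.31 and not called (adjusted p = 0.15).

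Plvap, of the fenestral diaphragm, read 7.50, 7.85, 7.42 and 7.74 in Cre- and 7.45, 7.52, 7.93 and 7.58 in Cre+ mice at 4 months. The 7-month values were 7.76, 7.54 and 7.69 in Cre- and 7.31, 6.87, 7.56 and 7.21 in Cre+ kidneys. Here too 1 Cre+ array, replicate 3, lay within the Cre- range. The change was -0.01 ± 0.15 (SE) at 4 months and -0.43 ± 0.16 (SE) at 7 months (adjusted p = 0.99 and 0.061). The 7-month value was called under 6 of 18 alternatives. Among them were the loss of Cre+ replicate 3 (-0.54, adjusted p = 0.023) and arrays centred on their medians (-0.50, adjusted p = 0.015). Without Cre+ replicate 2 it was -0.31 and not called (adjusted p = 0.18).

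Vwf encodes von Willebrand factor of larger vessels and platelets. It was dim on these arrays, with values of 4.74, 4.69, 4.32 and 4.73 in Cre- and 4.46, 4.66, 4.50 and 3.88 in Cre+ mice at 4 months, and 4.57, 4.20 and 4.64 against 4.56, 4.72, 4.87 and 4.48 at 7 months. Of all genes 43.1% had a mean below that of Vwf, and Xist in the arrays of high Y-linked values, where it is known to be silent, read 3.35 to 3.93. The changes of -0.24 ± 0.16 and 0.19 ± 0.17 (SE) were not called (adjusted p = 0.50 at each age), and the 4-month value was -0.08 (adjusted p = 0.88) without Cre+ replicate 4, the lowest array. At so low a signal a change could go undetected.

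**Figure D2:**
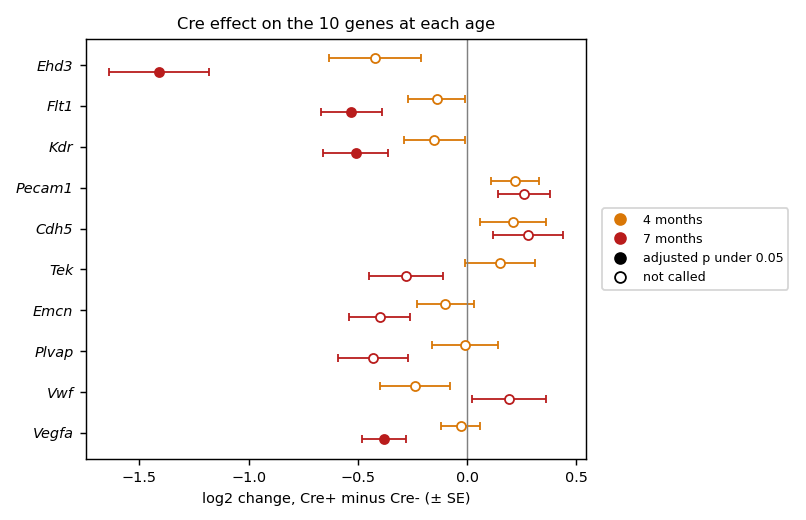
Log2 change between Cre+ and Cre- kidneys (horizontal axis, Cre+ minus Cre-, with its SE) for each of the 10 genes, at 4 months (orange) and 7 months (red). Filled points mark an adjusted p under 0.05, which Ehd3, Flt1, Kdr and Vegfa reached at 7 months and no gene reached at 4 months.

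Cre+ replicate 2 at 7 months held the lowest value of its group for 8 of the 10 genes, all except Vegfa and Vwf. The same array had the lowest mean level in its group of podocyte markers (6.61, group range 6.61 to 6.97), of glomerular endothelial genes (6.12, range 6.12 to 6.24) and of the 28 other endothelial genes measured (5.73, range 5.73 to 6.04). It was also lowest for the 22 VEGF and angiopoietin pathway genes (5.97), hypoxia-inducible factor pathway genes (7.12), mural cell markers (6.80, range 6.80 to 7.19) and thick ascending limb markers (8.70). It was not lowest for lymphatic, platelet, macrophage, lymphocyte or proximal tubule genes. The part of this array's make-up in the members' values was not tested. Its mean correlation with the other arrays of its group was 0.99. All 4 falls at 7 months kept their call without it (adjusted p from 1.6e-05 to 0.045).

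In Cre+ kidneys the values at 7 months were compared with those at 4 months. Of the 10 genes 4 were called, all lower at 7 months, where 10.8% of all genes were called and 6.71% were called lower (914 higher and 1488 lower, and 1325 and 1107 after quantile normalization). Ehd3 fell by 1.40 ± 0.21 (SE, n = 4 and 4, adjusted p = 4.5e-04), Kdr by 0.58 ± 0.14 (adjusted p = 0.014), Tek by 0.51 ± 0.16 (adjusted p = 0.048) and Flt1 by 0.45 ± 0.13 (adjusted p = 0.035). Without replicate 2 of the 7-month group, Ehd3 and Kdr were still called (-1.09 and -0.41, adjusted p = 9.5e-05 and 0.03), and Tek and Flt1 were not (-0.32 and -0.30, adjusted p = 0.12 and 0.088). The Flt1 call was also lost without any 1 of the 4-month arrays (adjusted p from 0.052 to 0.09), and that of Tek without replicate 2, 3 or 4 at 4 months or replicate 1 or 3 at 7 months (adjusted p from 0.055 to 0.12). Emcn (-0.42, adjusted p = 0.052) and Vegfa (-0.24, adjusted p = 0.088) did not pass, although the Vegfa groups did not overlap. Emcn was called under 7 of 19 alternatives, among them arrays centred on their medians (adjusted p = 0.04) and a filter on dim genes (0.037). The loss of replicate 2 at 4 months (0.036) or replicate 1 at 7 months (0.03) also gave a call. Without replicate 2 at 7 months Emcn changed by -0.33 and was not called (adjusted p = 0.15). In the plain linear model Vegfa was called (adjusted p = 0.032) and Flt1 and Tek were not (adjusted p = 0.059 and 0.095). Groups of 11.0% of all genes were apart in that direction. This comparison and the 7-month Cre comparison share the 7-month Cre+ arrays.

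In Cre- kidneys none of the 10 genes was called between 7 and 4 months (limma, 0 of 10, and 0 at an unadjusted p under 0.05), where 0.00451% of all genes, or 1 gene, were called and 2.71% had an unadjusted p under 0.05. Ehd3 had the largest difference, -0.41 ± 0.23 (SE, adjusted p = 1.0), and its groups did not overlap, as for 2.13% of all genes in the lower direction. The difference of the Cre effects between the ages was called for none of the 10 genes either (limma, 0 of 10, and 2 at an unadjusted p under 0.05), where 2.14% of all genes were called and 15.9% had an unadjusted p under 0.05. A larger effect at 7 months is therefore not shown for any member by this test.

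The 4 groups could be placed in order for each gene. Ehd3 was highest in 4-month Cre- kidneys (mean 8.61 ± 0.12 SD), nearly equal in 7-month Cre- (8.20 ± 0.08) and 4-month Cre+ kidneys (8.19 ± 0.16), which overlapped, and lowest in 7-month Cre+ kidneys (6.79 ± 0.63). Kdr ran from 8.90 in 4-month Cre- through 8.75 in 4-month Cre+ and 8.68 in 7-month Cre- to 8.17 in 7-month Cre+ kidneys, and only the last step left no overlap between neighbours. Flt1 ran from 7.67 in 4-month Cre- through 7.61 in 7-month Cre- and 7.53 in 4-month Cre+ to 7.08 in 7-month Cre+ kidneys, likewise with overlap everywhere but at the last step. Vegfa was highest in 7-month Cre- kidneys (9.27), followed by 9.16 and 9.13 at 4 months and 8.88 in 7-month Cre+ kidneys, again separated only at the last step. Pecam1 and Cdh5 were highest in 4-month Cre+ kidneys (8.34 and 8.68) and lowest in 7-month Cre- kidneys (7.99 and 8.26), with neighbours overlapping.

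Because Ehd3 fell at 7 months and Pecam1, Cdh5 and Tek were not called, its level was set against theirs within each array, as Ehd3 minus the mean of the 3 genes. Levels of different probes cannot be compared, so only the difference of this value between groups carries meaning. At 4 months it was 0.29, 0.15, 0.49 and 0.42 in Cre- and -0.23, -0.32, -0.19 and -0.37 in Cre+ kidneys. At 7 months it was -0.17, 0.31 and 0.05 in Cre- and -1.34, -2.04, -1.25 and -1.11 in Cre+ kidneys. The groups did not overlap at either age. The means differed by -0.61 at 4 months (0.33 ± 0.15 against -0.28 ± 0.08, SD, n = 4 each). They differed by -1.50 at 7 months (0.06 ± 0.24, n = 3, against -1.43 ± 0.41, n = 4). Ehd3 and the 3 genes it was set against were chosen with their changes known, so these values are a description and carry no test.

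**Figure D3:**
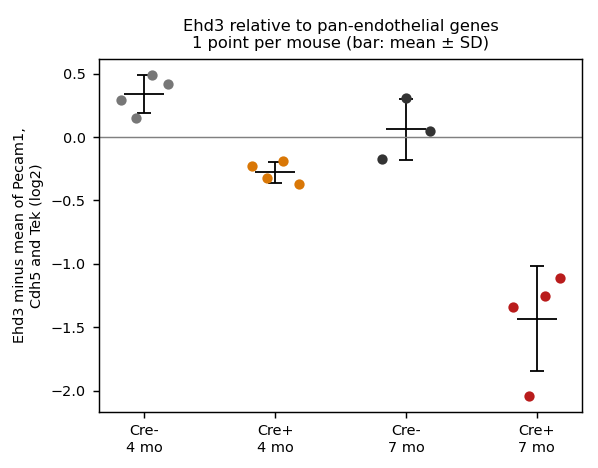
Ehd3 minus the mean of Pecam1, Cdh5 and Tek within each array (vertical axis, log2) in the 4 groups, 1 point per mouse, with mean and SD. Cre+ points lie below Cre- points at each age, between -0.37 and -0.19 at 4 months and between -2.04 and -1.11 at 7 months.

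The VEGF receptors were set against Pecam1 and Cdh5 in the same way, as a description chosen after their values were seen. Kdr minus the mean of Pecam1 and Cdh5 was 0.60 ± 0.21 (SD) in Cre- and 0.24 ± 0.18 in Cre+ mice at 4 months, and 0.55 ± 0.36 and -0.23 ± 0.22 at 7 months. The corresponding Flt1 values were -0.63 ± 0.10 and -0.98 ± 0.14 at 4 months, and -0.52 ± 0.32 and -1.32 ± 0.21 at 7 months. For Flt1 the groups were apart at both ages, and for Kdr at 7 months, where the lowest Cre- value was 0.20 and the highest Cre+ value -0.08. The 4-month groups of Flt1 itself overlapped, with a change of -0.14. At that age Pecam1 and Cdh5, which enter the relative value, changed by 0.22 and 0.21. None of these 4-month changes was called.

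The wider VEGF, angiopoietin and sprouting pathway was followed through 22 other genes, all measured. At 4 months 1 rose, where 2.73% of all genes were called higher, and none fell, where 0.803% were called lower. Aplnr, the apelin receptor, which is known from sprouting endothelium, rose by 0.92 ± 0.18 (SE, adjusted p = 0.0057). At 7 months 5 rose, where 11.7% of all genes were called higher, and 2 fell, where 10.8% were called lower. The median change was 0.05 beside -0.04 over all genes. Aplnr rose by 0.98 ± 0.19 (adjusted p = 0.001), Vegfc, a ligand of the lymphatic receptor Flt4, by 0.66 ± 0.13 (adjusted p = 0.0016) and Nrp2, a co-receptor for VEGF and semaphorins, by 0.66 ± 0.15 (adjusted p = 0.004). Plcg1, which carries the signal inside the cell from Kdr, rose by 0.44 (adjusted p = 0.015), and Notch1, which limits sprouting, by 0.42 (adjusted p = 0.0089). The Plcg1 call was lost without Cre- replicate 1 or 2 (adjusted p = 0.081 and 0.072).

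The 2 genes of this list that fell at 7 months act on or mark endothelium. Angpt1, the ligand that activates Tek, was 6.54 to 7.09 in Cre- and 5.16 to 6.35 in Cre+ kidneys and fell by 0.94 ± 0.24 (SE, adjusted p = 0.0074). Esm1 (endocan), a proteoglycan made by endothelial cells exposed to VEGF, was 7.57 to 7.88 in Cre- and 6.33 to 7.12 in Cre+ kidneys and fell by 0.83 ± 0.16 (SE, adjusted p = 0.0011). Neither pair of groups overlapped, as for 15.2% of all genes in the lower direction at 7 months. At 4 months Angpt1 and Esm1 changed by -0.36 and -0.10, and neither was called.

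The other ligands and receptors of these families were not called at either age. Vegfb changed by 0.29 and 0.23 at 4 and 7 months, Vegfd by -0.41 and -0.36, and Pgf, which was dim at 2.80 to 3.65, by 0.17 and 0.15. Among receptors, Nrp1 changed by -0.18 and -0.12, Flt4 by 0.20 and -0.15 and Tie1 by 0.09 and 0.17. Angpt2, the partial antagonist of Angpt1, changed by 0.03 and -0.55. Vegfd was called lower at each age with the Y-linked level as a covariate (-0.42 at each, adjusted p = 0.04 and 0.02).

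**Figure D4:**
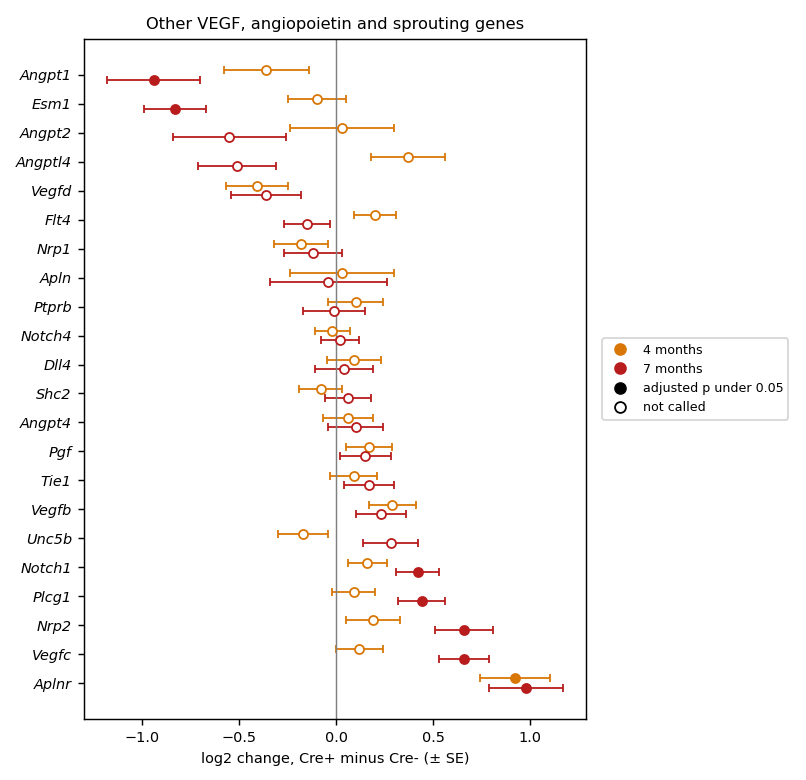
Log2 change between Cre+ and Cre- kidneys (horizontal axis, with its SE) for the 22 other VEGF, angiopoietin and sprouting genes at 4 months (orange) and 7 months (red), filled where the adjusted p was under 0.05. Angpt1 and Esm1 lie at the lower end at 7 months (-0.94 and -0.83), and Aplnr at the upper end at each age (0.92 and 0.98).

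Genes of glomerular endothelium other than Ehd3 numbered 8, all measured. None was called at 4 months (limma, 1 at an unadjusted p under 0.05, beside 16.3% of all genes). Plat and Lpl differed by -0.47 and -0.33 at that age, and the median was -0.18. Plat was called at 4 months with arrays centred on their medians (-0.55, adjusted p = 0.033). At 7 months 2 fell, where 10.8% of all genes were called lower, and 1 rose, where 11.7% were called higher. The median was again -0.18. Lpl, lipoprotein lipase, which is anchored on capillary endothelium and also made by other kidney cells, fell by 1.30 ± 0.20 (SE, adjusted p = 1.2e-04). Within Cre- kidneys of each age, Lpl was higher in arrays with higher proximal tubule markers. In 4-month Cre- arrays it read 10.08 and 9.88 where their mean level was 11.05 and 11.07. It read 9.43 and 9.35 where that level was 10.54 and 10.48. Cre+ arrays did not keep this order. The part of tubule cells in the Lpl fall was not tested. Plat, tissue plasminogen activator, fell by 0.66 ± 0.16 (SE, adjusted p = 0.0066). Neither gene's groups overlapped, with Lpl at 9.65 to 10.14 in Cre- and 8.26 to 9.08 in Cre+ kidneys and Plat at 8.06 to 8.33 and 7.54 to 7.65. Such a separation in the lower direction was seen for 15.2% of all genes. Fbln2, a matrix protein, rose by 0.36 (adjusted p = 0.039), a call lost with arrays centred on their medians (0.28, adjusted p = 0.072) and without Cre- replicate 2 or 3 or Cre+ replicate 1, 2 or 3 (adjusted p from 0.073 to 0.14).

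Podocytes face the glomerular endothelium across the filtration barrier. Of 9 measured podocyte markers, none was called at 4 months (limma, 3 at an unadjusted p under 0.05, beside 16.3% of all genes). Ptpro was at -0.44 and Podxl at -0.38, and the median was -0.21. With arrays centred on their medians Ptpro was called (-0.52, adjusted p = 0.032). At 7 months 3 fell, where 10.8% of all genes were called lower, and 1 rose, where 11.7% were called higher. The median was -0.43. Podxl (podocalyxin, which endothelium also makes) fell by 0.77 (adjusted p = 0.0071), Nphs1 (nephrin) by 0.76 (adjusted p = 0.0012) and Wt1 by 0.47 (adjusted p = 0.031), while Plce1 rose by 0.96 (adjusted p = 2.0e-04). The Wt1 call was lost without Cre- replicate 1 (-0.37, adjusted p = 0.14), Cre- replicate 2 (-0.46, adjusted p = 0.084), Cre+ replicate 1 (-0.39, adjusted p = 0.092) or Cre+ replicate 2 (-0.47, adjusted p = 0.055). The mean level of the 9 markers was 6.83 to 7.18 in Cre- and 6.61 to 6.97 in Cre+ mice at 7 months. The part of these cells in the Ehd3 and Vegfa results was not tested.

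**Figure D5:**
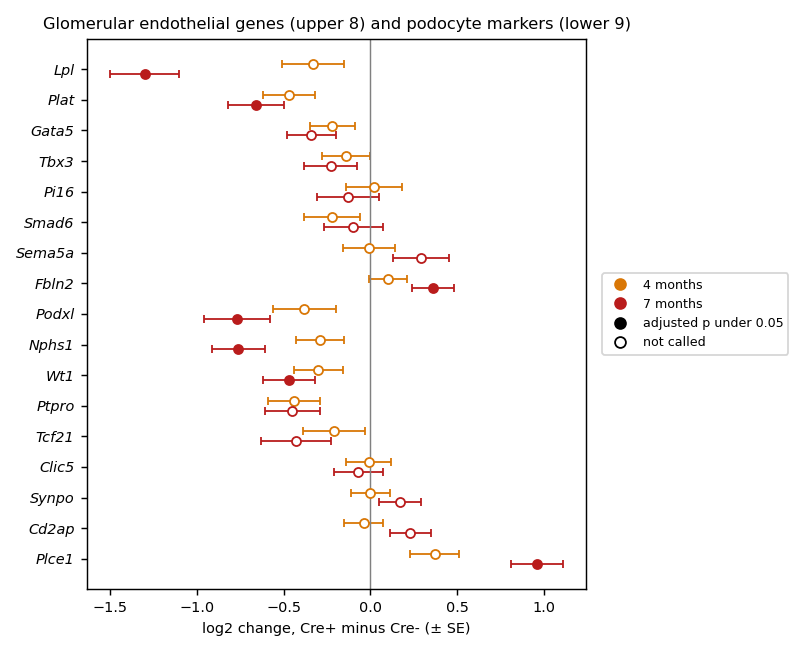
Log2 change between Cre+ and Cre- kidneys (horizontal axis, with its SE) for 8 other glomerular endothelial genes (upper rows) and 9 podocyte markers (lower rows) at 4 months (orange) and 7 months (red), filled where the adjusted p was under 0.05. Lpl (-1.30), Podxl (-0.77), Nphs1 (-0.76), Plat (-0.66) and Wt1 (-0.47) were lower, and Plce1 (0.96) and Fbln2 (0.36) higher, at 7 months.

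Of the 28 other endothelial genes measured, none was called at 4 months (limma, 3 at an unadjusted p under 0.05, beside 16.3% of all genes). The largest differences at that age were 0.37 for Sele and 0.33 for Cd34, and the median was 0.11. Without Cre+ replicate 1 Cd34 was called at that age (0.48, adjusted p = 0.028). At 7 months 3 rose, where 11.7% of all genes were called higher, and none fell, where 10.8% were called lower. The median was 0.06. Cd34, a sialomucin of capillaries and progenitors, rose by 0.60 ± 0.15 (SE, adjusted p = 0.0078). Fli1, an ETS transcription factor of endothelial and blood cells, rose by 0.46 ± 0.11 (SE, adjusted p = 0.0035). Selp (P-selectin), which platelets also hold, rose by 0.43 (adjusted p = 0.048) and lost its call when any single 7-month array was left out (adjusted p from 0.061 to 0.15). The mean level of the 28 genes was 5.78 to 5.90 in Cre- and 5.73 to 6.04 in Cre+ mice at 7 months.

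Of 5 measured lymphatic endothelial genes, 3 had negative changes at each age, with medians of -0.08 and -0.01 at 4 and 7 months. The list held 1 gene called higher at 4 months and 2 at 7 months, where 2.73% and 11.7% of all genes were called higher. None was called lower. Reln, which encodes the secreted glycoprotein reelin and is made by several cell types, rose by 5.06 and 5.22 (adjusted p = 3.1e-14 and 3.2e-14). Lyve1, a defining lymphatic receptor, changed by 0.03 and -0.01 and was not called. Pdpn rose by 0.42 at 7 months (adjusted p = 0.048), a call lost with arrays centred on their medians (0.35, adjusted p = 0.091) and without Cre- replicate 2 or 3 or Cre+ replicate 1, 2 or 3 (adjusted p from 0.08 to 0.19).

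Markers of mural cells were followed because Angpt1 and Tek link these cells to endothelium. Of 14 measured, Mcam rose at each age (0.52 and 0.67, adjusted p = 0.036 and 0.002), although at 4 months it lost its call with arrays centred on their medians (0.43, adjusted p = 0.054) and without Cre- replicate 1, 3 or 4 or Cre+ replicate 2, 3 or 4 (adjusted p from 0.055 to 0.13). Mcam encodes CD146, which endothelium also makes. Notch3 rose by 0.54 (adjusted p = 0.003) and Itga8, an integrin of mesangial cells, fell by 0.76 (adjusted p = 0.0038) at 7 months. Over all genes 2.73% were called higher at 4 months, and 11.7% higher and 10.8% lower at 7 months. The median change of the 14 markers at 7 months was 0.27, with 11 positive. None of 6 platelet markers was called at either age (limma, 1 and 2 at an unadjusted p under 0.05, beside 16.3% and 32.9% of all genes). Ppbp was at -0.72 and -1.04 and Itga2b at -0.18 and -0.26. The 4-month Ppbp value was -0.30 without Cre- replicate 2. At 7 months Ppbp was called lower without Cre- replicate 1 (-1.37, adjusted p = 0.021) and Itga2b without Cre- replicate 2 (-0.37, adjusted p = 0.029), and with arrays centred on their medians both were (-1.11 and -0.34, adjusted p = 0.038 and 0.028).

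The hypoxia-inducible factor pathway is known to control Vegfa, and 24 of its genes were measured. At 4 months 2 rose (Bhlhe40 by 0.61 and Hif1a by 0.58, adjusted p = 0.015 and 0.0083) and 1 fell (Vldlr by 0.53, adjusted p = 0.006). Over all genes 2.73% were called higher and 0.803% lower at 4 months. Without Cre- replicate 1 the Bhlhe40 change at that age was 0.52 and not called (adjusted p = 0.065). At 7 months 4 rose and 4 fell, where 11.7% and 10.8% of all genes did, with a median of 0.08 beside -0.04 over all genes. Bhlhe40, a transcriptional repressor, rose by 1.01 ± 0.14 (SE, adjusted p = 5.9e-05), Hif1a, the inducible subunit, by 0.88 (adjusted p = 6.1e-05) and Adm, the vasodilator adrenomedullin, by 0.47 (adjusted p = 0.044). Vldlr fell by 0.96 (adjusted p = 7.0e-06) and Bnip3, a mitophagy gene, by 0.59 (adjusted p = 4.0e-04). Mxi1, an antagonist of Myc, fell by 0.41 (adjusted p = 0.05 when rounded, just under the threshold). The other called genes, added after their values were seen, were Egln1, a prolyl hydroxylase that marks the inducible subunit for degradation, which fell by 0.37 (adjusted p = 0.023), and Kdm3a, a histone demethylase, which rose by 0.33 (adjusted p = 0.046). The Mxi1 call was lost under 13 of 18 alternatives, among them the loss of any 1 of the 7-month arrays, that of Kdm3a under 12 and that of Egln1 under 6. The Adm call was lost with arrays centred on their medians (0.39, adjusted p = 0.061) and without any 7-month array other than Cre- replicate 3 and Cre+ replicate 2 (adjusted p from 0.057 to 0.23). The Adm change was 0.30 (adjusted p = 0.23) without Cre- replicate 1 and 0.14 (adjusted p = 0.63) in arrays of high Y-linked values. The part of this pathway in the Vegfa result was not tested.

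Other cell types moved with these results at 7 months, where 11.7% of all genes were called higher and 10.8% lower. All 12 macrophage markers rose (median 1.68), and their mean level was 7.68 to 7.95 in Cre+ against 5.66 to 6.12 in Cre- kidneys. Of 8 lymphocyte markers 6 rose (median 1.29, mean level 5.09 to 5.80 against 4.21 to 4.35). Of 12 proximal tubule markers 11 fell (median -1.23, median of the mean level 9.49 against 11.03, with no overlap), and of 8 thick ascending limb markers 3 fell and 1 rose (median -0.33, mean level 8.70 to 8.87 against 9.13 to 9.46). At 4 months 4 macrophage and 1 lymphocyte markers rose, 3 proximal tubule markers fell, and 2 thick ascending limb markers fell and 1 rose. Over all genes 2.73% were called higher and 0.803% lower at that age. The part of these shifts in the values of the 10 genes was not tested.

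Finally, the genes whose spread between animals of the same group was most like that of each member were sought, as the Pearson correlation of deviations from group means over 15 arrays. These values are descriptions, and the arrays share their normalization and the make-up of each kidney. Each is a top value picked from very many genes on few arrays, so high values can occur among unrelated genes. Kdr was closest to Esm1 (r = 0.97, Spearman rho = 0.88), and r was 0.88 without Cre+ replicate 2 at 7 months. Plvap had Bod1l (0.95) and Eng, the endothelial co-receptor endoglin (0.94), at its top, Tek had Rxfp1 (0.93), and Cdh5 had Sparc, a matrix protein (0.95), and Myl9 (0.93). Pecam1 was closest to Pla2g7 (0.96), Emcn to Rfk (0.92), Flt1 to Kcnk18 (0.87), Vwf to Ms4a15 (0.86) and Vegfa to Bptf (0.85). The Flt1 value was 0.70 without Cre+ replicate 2 at 7 months. Ehd3 was closest to Add3 (0.90), which dropped to 0.41 without Cre+ replicate 2, so that likeness rests on that array.

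Among the members themselves, the r of Ehd3 was 0.88 with Kdr, 0.83 with Flt1, 0.82 with Tek, 0.49 with Pecam1 and 0.40 with Cdh5. Without Cre+ replicate 2 at 7 months these values were 0.46, 0.15, 0.28, 0.38 and 0.26, so their order rests on that array. Plvap varied like Emcn (0.80), Pecam1 (0.77) and Cdh5 (0.77), and these values were 0.72, 0.72 and 0.76 without it. Vegfa had correlations between -0.05 and 0.37 with the other 9 genes, and its r with Kdr was 0.14 and with Flt1 0.05.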

How the data were processed

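Total RNA (100 ng, RNA integrity number above 7, per the labels' protocols) from frozen kidneys was measured on Affymetrix Mouse Gene 2.0 ST arrays, with 1 array for each mouse. The authors deposited log2 values, made with RMA in Partek 6.6, per the submitters' processing notes. RMA normalizes probe intensities between arrays, so a shift common to most genes would not be seen. Of 41345 entries, 23521 carried 1 gene symbol; the brightest entry of a gene over all 15 arrays was kept, which left 22180 genes with no filter on dim ones. Groups came from the labels.

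In limma 3.58.1 (R 4.3.3), lmFit and eBayes were run on group means over all 15 arrays. Tests were two-sided, p-values were adjusted by Benjamini-Hochberg across the 22180 genes, and the threshold was 0.05. The submitters named an analysis of variance; the plain linear model was an alternative. Arrays measure hybridisation, so their number limits the precision. The fit was tested on simulated data. The planned permutation test of Ehd3 relative to Pecam1, Cdh5 and Tek is not reported, because those genes were chosen with their changes known. Tables and figures used pandas 2.3.3, numpy 2.4.6 and matplotlib 3.10.9 in Python 3.11.15.

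The 10 genes and the other lists were chosen with earlier results of these data known. All members are named; of each other list, up to 3 rising and 3 falling called genes with the largest change, or, where none was called, up to 2 as values; VEGF and angiopoietin ligands and receptors whatever their values; and up to 3 most alike genes per member. Tfe3 and Gpnmb check the labels. Promoter windows are from RefSeq (GRCm38.p6). Alternatives were a filter on dim genes, quantile normalization, centring of arrays on the median of the named genes, trend and robust variance, the plain model, the compared groups alone, the replicate number, the Y-linked level, the mean of a gene's entries, and each array left out in turn.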

Additional observations from a re-analysis of the deposited data

Results flagged for a closer look

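In 4 of the 30 groups of 4 arrays tested over the 10 genes, 1 array stood apart from the others of its group, with a gap to its neighbour, as a share of the group's range, above Dixon's critical value for 4 samples. Chance gives about 1 such group in 20, and the 7-month Cre- group of 3 was not tested. Flt1 read 6.61 in Cre+ replicate 2 at 7 months, the lowest of that group, and 7.20 to 7.27 in the other arrays. Kdr read 8.93 in Cre+ replicate 4 at 4 months, above 8.67 to 8.71 in the others. Vwf read 4.32 in Cre- replicate 3 at 4 months, below 4.69 to 4.74. Vegfa read 9.12 in Cre- replicate 1 at 4 months, beside 9.17 in each of the others, a gap of 0.05 on the log2 scale.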

How the results depend on the processing

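At 4 months and in the comparison of Cre- ages, no member was called under any alternative, and neither was any in the difference between ages. At 7 months, 6 members were called with a filter on dim genes, arrays centred on their medians, trend and robust variance or the Y-linked level as a covariate (Emcn and Plvap added), and 6 after quantile normalization (Plvap and, higher, Pecam1 added). The 4 calls became 1 (Ehd3) in arrays of low Y-linked values, where 1 Cre- array remains. In the age comparison of Cre+ kidneys, the 4 calls became 2 (Ehd3 and Kdr) when those groups were fitted alone, 1 (Ehd3) in arrays of high and 2 (Ehd3 and Emcn) in arrays of low Y-linked values, 6 with that level as a covariate (Emcn and Plvap added), and 2 to 4 when each array was left out in turn; the cause was not tested. Ehd3 relative to Pecam1, Cdh5 and Tek at 4 months ranged from -0.68 to -0.56 when each array was left out. No called change of a member turned its direction. Vwf fell below the filter on dim genes and has no value there. Same-numbered arrays of Cre+ and Cre- groups deviated from their means with correlations of -0.28 to 0.22, so the numbers were not taken to pair mice. With the replicate number as a block, 5 members were called at 7 months (Emcn added, -0.42, adjusted p = 0.049), 4 in the age comparison of Cre+ kidneys and 0 in the other comparisons. Over all genes, calls in the difference between ages ranged from 59 to 734 across settings (475 as reported). In the age comparison of Cre+ kidneys they ranged from 851 to 2981 (2402), and between Cre- ages from 0 to 1. For the Cre effect they ranged from 468 to 1101 (784) at 4 months and from 3056 to 5946 (4991) at 7 months.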
